A study of Mus musculus with 11 samples.

Results

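The formyl peptide receptor genes Fpr1 and Fpr2 and the gene of their ligand annexin A1, Anxa1, were followed through 11 RNA-seq libraries of GL261 gliomas. These 3 of the 50686 genes in the count tables were selected on their counts in tumour-associated microglia (TAM-MG), because Fpr1 had none in TAM-MG of mice lacking Rheb1 in these cells. The values of all 3 genes in TAM-MG are for this reason given as a description, without a test. All mice were C57BL/6, received tamoxifen, were injected intracranially with GL261 cells, a mouse glioma line, at 6 weeks of age and 3 weeks after tamoxifen, and were sampled 3 weeks after tumour initiation. The Cx3cr1-Rheb1 Δ/Δ mice carried a tamoxifen-inducible Cre (CreERT2) knocked into Cx3cr1 and a floxed Rheb1, the activator of mTOR complex 1, and are labelled KO. The Rheb1 fl/fl mice, labelled WT, carried the floxed gene without Cre, so that they too are not unmanipulated wild types. Cre acts only in cells that express Cx3cr1, mostly microglia and other mononuclear phagocytes, and the GL261 cells keep their Rheb1. Bulk tumour RNA came from formalin-fixed, paraffin-embedded sections of 3 Cx3cr1-Rheb1 Δ/Δ tumours (replicates 26, 36 and 37) and 3 Rheb1 fl/fl tumours (replicates 35, 38 and 110). TAM-MG were sorted as live CD11b+ CD45low cells from tumours of 3 Cx3cr1-Rheb1 Δ/Δ mice (replicates 54, 63 and 65) and 2 Rheb1 fl/fl mice (replicates 74 and 78).

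Formyl peptide receptors are G protein-coupled receptors of phagocytes that sense N-formylated peptides, which bacteria and damaged mitochondria release, and that drive chemotaxis, degranulation and the oxidative burst. Fpr1 binds such peptides tightly, whereas Fpr2 also takes up a wide range of other ligands, among them serum amyloid A, the cathelicidin peptide and annexin A1. Annexin A1 is a calcium-dependent phospholipid-binding protein of myeloid and other cells that is induced by glucocorticoids, restrains neutrophil recruitment and promotes the clearance of dying cells.

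Fpr1 (ENSMUSG00000045551) spans bases 17876471 to 17883940 of chromosome 17 (GRCm38) and is read from the minus strand. It has 1 annotated transcript of 2 exons, and the whole coding sequence lies in the downstream one. Fpr2 (ENSMUSG00000052270) follows on the plus strand, from 17887824 to 17893952, so that both genes point away from each other with 3883 bases between their starts. Fpr2 lies almost wholly within the annotated span of its paralogue Fpr3. Reads that match several receptor genes of this cluster could be split between them or left out by the counting. The rule for such reads is not given in the sources used here. Anxa1 (ENSMUSG00000024659) spans bases 20373428 to 20390944 of chromosome 19, also on the minus strand, with 8 annotated transcripts. It overlaps 1500015L24Rik on the opposite strand, and the library kit does not mark strand, so that reads of the overlap cannot be told apart.

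The bases before the starts of Fpr1 and Fpr2 are shown because of these neighbours only Fpr1 had counts in TAM-MG, while both had counts in bulk tumours. They come from RefSeq on GRCm38.p6 and run 5′ to 3′ on the strand of each gene, with matches to the searched motifs in capitals.
Fpr1, chr17:17883941-17884189, minus strand: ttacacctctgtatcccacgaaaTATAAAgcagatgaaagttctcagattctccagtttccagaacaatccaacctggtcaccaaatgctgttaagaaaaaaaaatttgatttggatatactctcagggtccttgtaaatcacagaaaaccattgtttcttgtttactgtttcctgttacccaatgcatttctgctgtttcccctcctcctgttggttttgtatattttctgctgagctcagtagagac
Fpr2, chr17:17887574-17887823, plus strand: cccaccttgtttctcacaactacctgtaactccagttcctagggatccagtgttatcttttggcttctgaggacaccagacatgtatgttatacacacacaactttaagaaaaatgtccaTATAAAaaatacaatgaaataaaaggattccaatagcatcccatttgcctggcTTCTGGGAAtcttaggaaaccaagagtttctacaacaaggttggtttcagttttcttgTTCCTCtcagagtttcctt
The search, on both strands, was for the TATA box TATAAA, the PU.1 core GAGGAA, the C/EBP site TTGCNNAA, the STAT site TTCNNNGAA, the AP-1 site TGANTCA and the degenerate NF-κB site. The Fpr1 window held TATAAA only, beginning 227 bases before the annotated start. The Fpr2 window held TATAAA 130 bases before the start, a STAT match 77 bases before it and the PU.1 core on the opposite strand 19 bases before it. Of 32851 RefSeq promoter windows, 12.4% held TATAAA, 7.0% the STAT site, 23.3% the PU.1 core, 9.6% the C/EBP site, 6.7% the AP-1 site and 45.8% the NF-κB site. These letters occur often and are not evidence of binding. The window of Anxa1 lies within annotated exons and is not shown.

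The TAM-MG libraries held between 22132236 and 25945816 counts in Cx3cr1-Rheb1 Δ/Δ mice and between 20765767 and 29947977 in Rheb1 fl/fl mice, and the bulk libraries between 14940787 and 19798998 in Cx3cr1-Rheb1 Δ/Δ and between 15606224 and 21991348 in Rheb1 fl/fl tumours. Of the genes tested, 25.6% were at 0 in at least 1 of the TAM-MG libraries and 14.5% in at least 1 of the bulk libraries. The sorted cells carried the microglial label in their RNA: the summed level of 10 microglial markers ran from 22683 to 34128 CPM in Cx3cr1-Rheb1 Δ/Δ and from 19261 to 24326 CPM in Rheb1 fl/fl TAM-MG. Of 12 neutrophil markers, Ly6g, Elane, Mpo, Cd177 and Mmp9 had no counts in any TAM-MG library, while others were counted, among them S100a8 at 11.6 to 22.5 CPM in Cx3cr1-Rheb1 Δ/Δ, against 18.8 and 33.1 CPM in Rheb1 fl/fl TAM-MG, and Ngp, a granule protein gene, at 1.69 to 23.4 CPM in Cx3cr1-Rheb1 Δ/Δ, against 10.5 and 31.7 CPM in Rheb1 fl/fl TAM-MG. Rheb itself averaged 69.6 ± 1.72 CPM in Cx3cr1-Rheb1 Δ/Δ (SD, n = 3) and 125 ± 55.0 CPM in Rheb1 fl/fl TAM-MG (SD, n = 2). In the bulk it averaged 165 ± 52.7 CPM in Cx3cr1-Rheb1 Δ/Δ and 304 ± 60.9 CPM in Rheb1 fl/fl tumours (SD, n = 3 each). The groups did not overlap in either experiment, as in this direction for 11.5% of genes tested in TAM-MG and 9.23% in bulk tumours. The nearest tumours were Cx3cr1-Rheb1 Δ/Δ replicate 26 at 225 CPM and Rheb1 fl/fl replicate 38 at 235 CPM. Rheb was called in neither experiment by the quasi-likelihood or the likelihood ratio test of edgeR. The floxed stretch is exon 3, and counts per gene do not single out its loss. CPM are counts scaled to a common library size on the TMM scale of edgeR, a scaling that damps the weight of the most abundant genes.

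Fpr1 was counted in both Rheb1 fl/fl TAM-MG libraries and in none of the 3 Cx3cr1-Rheb1 Δ/Δ TAM-MG libraries. Its counts were 0, 0 and 0 in Cx3cr1-Rheb1 Δ/Δ replicates 54, 63 and 65, against 178 and 123 in Rheb1 fl/fl replicates 74 and 78. On the CPM scale the Rheb1 fl/fl level was 5.95 ± 0.57 (SD, n = 2), and the Cx3cr1-Rheb1 Δ/Δ group stood at 0 with a limit of 0.0411 CPM, which is what a floor of 3 counts over the 3 libraries allows. Fpr1 was thus at least 142-fold lower in Cx3cr1-Rheb1 Δ/Δ TAM-MG. This bound covers counting error only, since amplified reads without molecular identifiers are not independent molecules. The bound lay between 91.4 and 153-fold when any 1 library was left out. The TPM values from Salmon, which are scaled for transcript length, were likewise 0 in all 3 Cx3cr1-Rheb1 Δ/Δ libraries, against 5.09 and 5.63 in the Rheb1 fl/fl libraries.

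This count pattern was shared by other genes and occurred in the opposite direction too. Counting Fpr1, 118 genes had counts in both Rheb1 fl/fl TAM-MG libraries and none in the Cx3cr1-Rheb1 Δ/Δ libraries. With the lower of the 2 Rheb1 fl/fl levels of Fpr1 as a minimum, 10 genes including Fpr1 showed it, whereas 18 genes reached that level in all 3 Cx3cr1-Rheb1 Δ/Δ libraries and were at 0 in both Rheb1 fl/fl libraries. The named genes nearest to Fpr1 in mean Rheb1 fl/fl level were Slc5a1, the intestinal sodium-glucose cotransporter, Fam110c, Catsperz, a sperm calcium channel subunit, and Morn5, with means of 5.77, 5.68, 5.64 and 5.43 CPM in the Rheb1 fl/fl libraries and 0 in the Cx3cr1-Rheb1 Δ/Δ libraries. Slc5a1 rested mostly on 1 library, with 11.2 CPM in replicate 74 and 0.31 CPM in replicate 78.

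Fpr2 had no counts in any of the 5 TAM-MG libraries, which over all of them allows a level of up to 0.0241 CPM, and its TPM was 0 in each. The remaining receptors of the family, Fpr3, Fpr-rs3, Fpr-rs4, Fpr-rs6 and Fpr-rs7, had no counts in any TAM-MG or bulk library. Among 7 formyl peptide receptor genes, Fpr1 was therefore the only one with counts in the sorted cells.

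Anxa1 was abundant in TAM-MG of both genotypes and lower in the Cx3cr1-Rheb1 Δ/Δ libraries. It had 144, 96.9 and 67.0 CPM in Cx3cr1-Rheb1 Δ/Δ replicates 54, 63 and 65, against 277 and 210 CPM in Rheb1 fl/fl replicates 74 and 78. All 3 Cx3cr1-Rheb1 Δ/Δ libraries lay below both Rheb1 fl/fl libraries, as did 11.5% of all genes tested. The means were 103 ± 39.0 CPM in Cx3cr1-Rheb1 Δ/Δ (SD, n = 3) and 244 ± 47.4 CPM in Rheb1 fl/fl TAM-MG (SD, n = 2), with a log2 fold change of -1.25 (standard error 0.38). Its TPM values were 109, 68.0 and 45.9 in Cx3cr1-Rheb1 Δ/Δ replicates 54, 63 and 65, against 207 and 128 in Rheb1 fl/fl replicates 74 and 78, which again did not overlap.

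**Figure D1:**
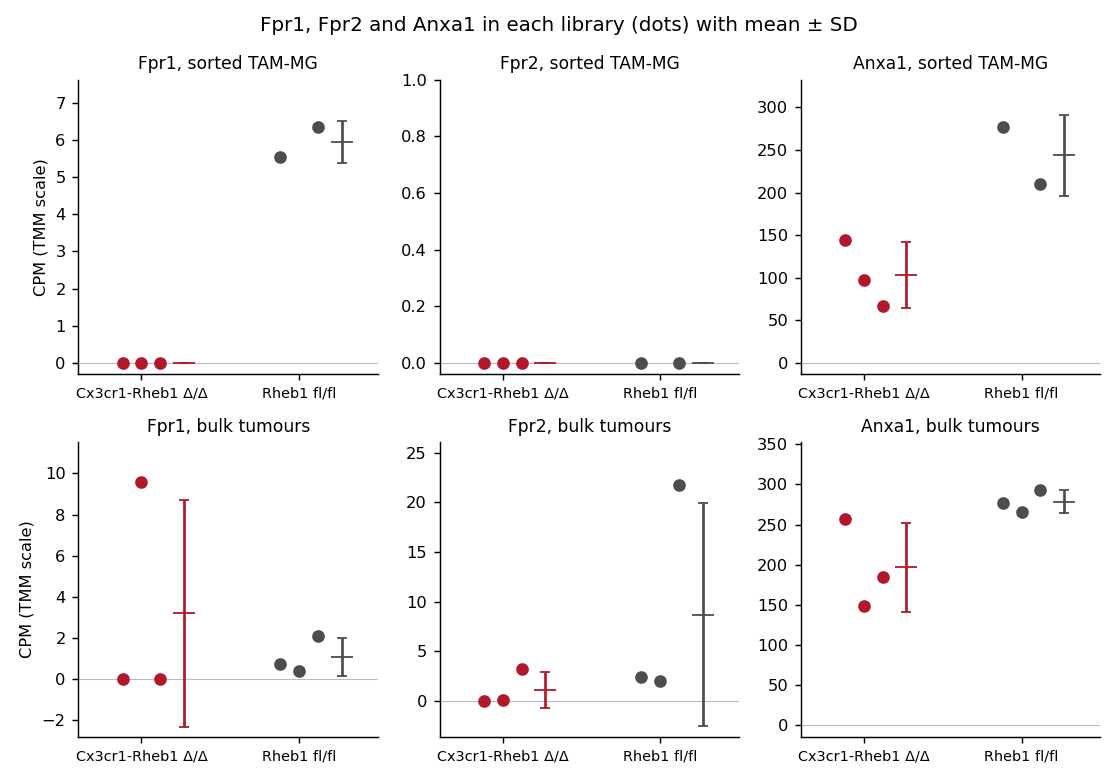
CPM on the TMM scale (vertical axis) of Fpr1, Fpr2 and Anxa1 in sorted TAM-MG (upper row) and bulk tumours (lower row), with a dot for each library and the mean ± SD beside it, Cx3cr1-Rheb1 Δ/Δ in red and Rheb1 fl/fl in grey. Fpr1 stood at 0 in the 3 Cx3cr1-Rheb1 Δ/Δ TAM-MG libraries, while in bulk tumours 1 Cx3cr1-Rheb1 Δ/Δ library at 9.59 CPM was the highest of all; where the SD exceeds the mean, its bar runs below 0.

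In whole tumours Fpr1 was counted in both genotypes. Fpr1 had 0, 150 and 0 counts in Cx3cr1-Rheb1 Δ/Δ replicates 26, 36 and 37, against 13, 9 and 34 counts in Rheb1 fl/fl replicates 35, 38 and 110. The highest library of all was thus a Cx3cr1-Rheb1 Δ/Δ tumour, the other tumours of that genotype were at 0, and the groups overlapped. The means were 3.20 ± 5.54 CPM in Cx3cr1-Rheb1 Δ/Δ and 1.08 ± 0.91 CPM in Rheb1 fl/fl tumours (SD, n = 3 each). On the log2 scale Cx3cr1-Rheb1 Δ/Δ over Rheb1 fl/fl came to 1.56, with a standard error of 2.11 (quasi-likelihood test of edgeR with Benjamini-Hochberg adjustment, adjusted p = 0.882). The sign rested on replicate 36: without it the fitted log2 value was -7.28 (adjusted p = 0.480, same test), a value that depends on the prior count because no Cx3cr1-Rheb1 Δ/Δ count was then left. A like pattern, at 0 in 2 tumours of a genotype and at or above the highest Fpr1 level in the remaining one, was shown by 98 genes in Cx3cr1-Rheb1 Δ/Δ and by 133 genes in Rheb1 fl/fl tumours. Fpr1 was not among the 12719 genes of the bulk TPM, so that its counts in bulk tumours have no check in TPM.

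Fpr2 was counted in 2 of the 3 Cx3cr1-Rheb1 Δ/Δ and in all 3 Rheb1 fl/fl tumours. It had 0, 1 and 60 counts in Cx3cr1-Rheb1 Δ/Δ replicates 26, 36 and 37, against 43, 43 and 348 counts in Rheb1 fl/fl replicates 35, 38 and 110. Replicate 110 held most of the Fpr2 counts, and the highest Cx3cr1-Rheb1 Δ/Δ tumour, at 3.14 CPM, lay above 2 of the Rheb1 fl/fl tumours, at 2.39 and 1.93 CPM. The means were 1.07 ± 1.80 CPM in Cx3cr1-Rheb1 Δ/Δ and 8.68 ± 11.3 CPM in Rheb1 fl/fl tumours (SD, n = 3 each), and the log2 fold change of -3.00 (standard error 1.91) did not pass the quasi-likelihood test of edgeR (adjusted p = 0.692). It was -7.76 without Cx3cr1-Rheb1 Δ/Δ replicate 37 (adjusted p = 0.239, quasi-likelihood test) and -1.02 without Rheb1 fl/fl replicate 110 (adjusted p = 0.967, quasi-likelihood test). In TPM, Fpr2 had 0, 0.0537 and 2.34 in Cx3cr1-Rheb1 Δ/Δ replicates 26, 36 and 37, against 2.32, 1.72 and 19.6 in Rheb1 fl/fl replicates 35, 38 and 110.

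Anxa1 was well counted in every tumour and lower in all 3 Cx3cr1-Rheb1 Δ/Δ tumours. Its levels were 257, 148 and 185 CPM in Cx3cr1-Rheb1 Δ/Δ replicates 26, 36 and 37, against 277, 266 and 294 CPM in Rheb1 fl/fl replicates 35, 38 and 110. The groups did not overlap in CPM, as was the case in this direction for 9.23% of the genes tested in bulk tumours. The mean was 197 ± 55.5 CPM in Cx3cr1-Rheb1 Δ/Δ and 279 ± 14.1 CPM in Rheb1 fl/fl tumours (SD, n = 3 each), and the log2 fold change of -0.50 (standard error 0.29) did not pass the quasi-likelihood test of edgeR (adjusted p = 0.664). In TPM the tumours were at 103, 59.7 and 62.3 in Cx3cr1-Rheb1 Δ/Δ replicates 26, 36 and 37, against 119, 102 and 116 in Rheb1 fl/fl replicates 35, 38 and 110, so that replicate 26 lay just above the lowest Rheb1 fl/fl tumour. All 3 genes passed the filter on low counts in bulk tumours and none was called, at an adjusted p under 0.05 and at least 1.5-fold. Of the 17028 genes tested, 0% were called in either direction. At an unadjusted p under 0.05 the quasi-likelihood test gave 650 genes (3.82%) on the higher and 883 (5.19%) on the lower side in Cx3cr1-Rheb1 Δ/Δ, and the likelihood ratio test of edgeR called 123 genes (0.722%) higher and 260 (1.53%) lower, none of them Fpr1, Fpr2 or Anxa1.

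The myeloid content of the bulk RNA moved with genotype. The summed level of 10 microglial markers ran from 33.6 to 148 CPM in Cx3cr1-Rheb1 Δ/Δ and from 254 to 482 CPM in Rheb1 fl/fl tumours, and that of 10 markers shared by myeloid cells from 401 to 731 CPM in Cx3cr1-Rheb1 Δ/Δ and from 1188 to 1688 CPM in Rheb1 fl/fl tumours. All 10 genes of either list had a negative log2 fold change, with medians of -1.92 and -1.54, beside a median of 0.00 over all genes. The microglial list includes Cx3cr1, into which Cre was knocked in Cx3cr1-Rheb1 Δ/Δ mice only. Cx3cr1 had 0.49, 0.38 and 26.9 CPM in replicates 26, 36 and 37, against 61.1, 87.3 and 139 CPM in Rheb1 fl/fl replicates 35, 38 and 110. The sum was not taken without it. Of 12 neutrophil markers, Ly6g, Ngp and Elane were at 0 in every tumour, and the sum of the list ran from 1.85 to 15.4 CPM in Cx3cr1-Rheb1 Δ/Δ and from 21.7 to 51.4 CPM in Rheb1 fl/fl tumours. Without Csf3r, the G-CSF receptor gene, left out after the values were seen, the neutrophil sums overlapped, at 0.73 to 15.4 CPM in Cx3cr1-Rheb1 Δ/Δ and 6.96 to 19.5 CPM in Rheb1 fl/fl tumours. In whole-tumour RNA, fewer myeloid cells and less RNA per cell cannot be told apart. The part of these markers in the Fpr2 and Anxa1 values was not tested. The sum of 10 monocyte and macrophage markers was 130 to 268 CPM in Cx3cr1-Rheb1 Δ/Δ and 502 to 1291 CPM in Rheb1 fl/fl tumours. By flow cytometry of CD45+ cells in this model, the authors reported fewer TAM-MG and more bone marrow-derived macrophages in Cx3cr1-Rheb1 Δ/Δ tumours. Those are cell levels and the sums are RNA levels, and the difference between them was not tested. Anxa1 was lower in the Cx3cr1-Rheb1 Δ/Δ libraries of the sorted cells as well. The mean microglial sum there was 1.36 times that of Rheb1 fl/fl, with overlapping groups. The mean monocyte and macrophage sum there was 0.82 times that of Rheb1 fl/fl. It ran from 337 to 1007 CPM in Cx3cr1-Rheb1 Δ/Δ, against 555 and 820 CPM in Rheb1 fl/fl TAM-MG, with overlap. The part of these sums in the Anxa1 values was not tested. The neutrophil sum there ran from 304 to 363 CPM in Cx3cr1-Rheb1 Δ/Δ and from 178 to 287 CPM in Rheb1 fl/fl TAM-MG, but most of it was Csf3r, at 287 to 300 CPM in Cx3cr1-Rheb1 Δ/Δ, against 142 and 214 CPM in Rheb1 fl/fl TAM-MG. Without Csf3r the sums of the sorted cells overlapped, at 16.99 to 62.6 CPM in Cx3cr1-Rheb1 Δ/Δ, against 36.3 and 73.6 CPM in Rheb1 fl/fl TAM-MG, and with it they overlapped in TPM, at 156 to 222 in Cx3cr1-Rheb1 Δ/Δ, against 130 and 258 in Rheb1 fl/fl TAM-MG.

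**Figure D2:**
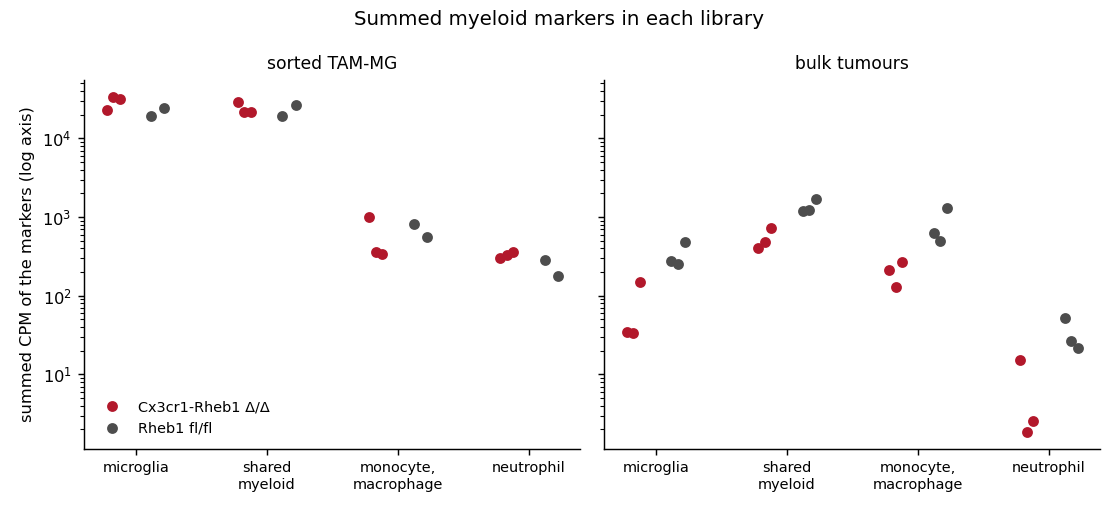
Summed CPM of myeloid marker lists (vertical log axis) in each library of sorted TAM-MG (left) and bulk tumours (right), Cx3cr1-Rheb1 Δ/Δ in red beside Rheb1 fl/fl in grey. In bulk tumours every Cx3cr1-Rheb1 Δ/Δ library lay below every Rheb1 fl/fl library for all 4 lists, whereas in TAM-MG the groups overlapped for the shared myeloid, the monocyte and macrophage and the microglial lists.

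The genes most like each of these genes over the 6 tumours were found by Pearson correlation of log2 CPM with a prior count of 2, and are a description of 6 points that share library depth and genotype. Fpr1 was followed most closely by Fmo1, a flavin monooxygenase, at r = 0.995 (Spearman 0.986), then by Nubp2 and Arhgef4, both at r = 0.98, and Fmo1 repeated the single high Cx3cr1-Rheb1 Δ/Δ tumour with 14.1 CPM in replicate 36. Fpr2 was followed by Arhgap45, a GTPase-activating protein of haematopoietic cells, at r = 0.995, Cnot9 and Gm43034, both at r = 0.99. Anxa1 was followed by Ly6c2, a surface marker of inflammatory monocytes, at r = 0.99, the interferon-induced Oasl1 and Gm29994, both at r = 0.99. Ly6c2 had 13.5, 0 and 0.99 CPM in Cx3cr1-Rheb1 Δ/Δ replicates 26, 36 and 37, against 28.1, 16.4 and 76.3 CPM in Rheb1 fl/fl replicates 35, 38 and 110. At r of at least 0.9 there were 82 genes for Fpr1, 275 for Fpr2 and 205 for Anxa1, so that a close match over 6 tumours was not rare. Between the genes themselves the correlations were weak, with r = 0.05 for Fpr1 with Fpr2, -0.29 for Fpr1 with Anxa1 and 0.48 for Fpr2 with Anxa1.

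Annexins share a calcium-dependent membrane-binding core and differ in their amino-terminal tails, and 12 of them were examined. In TPM, which allows a comparison between genes, Anxa3 was the most abundant in TAM-MG, at 583 ± 40.5 in Cx3cr1-Rheb1 Δ/Δ (SD, n = 3) and 515 ± 41.0 in Rheb1 fl/fl (SD, n = 2). In the Cx3cr1-Rheb1 Δ/Δ libraries it was followed by Anxa2, which forms a complex with S100a10, at 134 ± 113, Anxa5, a binder of phosphatidylserine on dying cells, at 126 ± 39.3, Anxa4 at 104 ± 20.9, Anxa1 at 74.2 ± 31.8, Anxa6 at 56.4 ± 31.0 and Anxa7 at 30.5 ± 7.19 TPM (SD, n = 3 each), neighbours that did not differ beyond their spread except for Anxa3. In the Rheb1 fl/fl libraries the order after Anxa3 was Anxa5 at 252 ± 56.3, Anxa1 at 167 ± 55.5, Anxa2 at 150 ± 10.8, Anxa4 at 109 ± 30.1, Anxa6 at 58.0 ± 10.3 and Anxa7 at 21.4 ± 5.57 TPM (SD, n = 2 each), where the spreads of Anxa3 and Anxa5, of Anxa4 and Anxa6 and of Anxa6 and Anxa7 did not overlap. Anxa1 thus stood below Anxa4 in Cx3cr1-Rheb1 Δ/Δ TAM-MG and above it in Rheb1 fl/fl TAM-MG, with neighbours whose spreads overlapped in both.

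Beside Anxa1, 7 annexins were tested in TAM-MG, of which 2 had a positive and 5 a negative log2 fold change, with a median of -0.18 beside 0.08 over all genes. None was called by the quasi-likelihood test of edgeR, which called 0% of the 14872 genes tested in either direction, or by the likelihood ratio test, which called 175 genes (1.18%) that were higher and 70 (0.471%) that were lower. At an unadjusted p under 0.05 the quasi-likelihood test gave 813 higher (5.47%) and 342 lower genes (2.30%), and 1 annexin, Anxa5, was among the lower ones. Anxa5 had 233, 121 and 179 CPM in Cx3cr1-Rheb1 Δ/Δ replicates 54, 63 and 65, against 282 and 500 CPM in Rheb1 fl/fl replicates 74 and 78. These values did not overlap, and the log2 fold change was -1.14 (standard error 0.39, adjusted p = 0.552, quasi-likelihood test). The closest to no difference was Anxa3, at 0.11 (standard error 0.24). Anxa2, Anxa4 and Anxa6 had log2 fold changes of -0.24, -0.17 and -0.18, Anxa7 of 0.48 and the scarce Anxa9 of -1.18 (standard error 1.63).

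In bulk tumours all 8 annexins tested, Anxa1 included, had a negative log2 fold change, with a median of -0.99 beside 0.00 over all genes, and none was called. The groups did not overlap for 4 of them, Anxa1, Anxa3, Anxa5 and Anxa7, beside 9.23% of all genes tested in this direction. Of these 4, only Anxa5 stayed without overlap in TPM. Anxa5 had 106, 63.8 and 143 CPM in Cx3cr1-Rheb1 Δ/Δ replicates 26, 36 and 37, against 269, 196 and 176 CPM in Rheb1 fl/fl replicates 35, 38 and 110 (log2 fold change -1.03, standard error 0.36, adjusted p = 0.388, quasi-likelihood test). In CPM, Anxa5 and Anxa1 lay lower in all Cx3cr1-Rheb1 Δ/Δ libraries of both experiments, which held for no other annexin. Of all genes tested 11.5% lay so in TAM-MG and 9.23% in bulk tumours, and the share in both was not counted. Anxa3 had 11.1, 45.7 and 19.5 CPM in Cx3cr1-Rheb1 Δ/Δ replicates 26, 36 and 37, against 105, 58.1 and 67.0 CPM in Rheb1 fl/fl replicates 35, 38 and 110 (log2 fold change -1.59, standard error 0.54, adjusted p = 0.378, quasi-likelihood test). In TPM, however, Anxa3 overlapped, at 6.91 to 41.6 in Cx3cr1-Rheb1 Δ/Δ and 9.48 to 39.4 in Rheb1 fl/fl tumours. Anxa7 averaged 47.0 ± 20.4 CPM in Cx3cr1-Rheb1 Δ/Δ and 98.1 ± 25.2 CPM in Rheb1 fl/fl tumours (SD, n = 3 each), and in TPM 4.41 to 15.5 in Cx3cr1-Rheb1 Δ/Δ and 10.4 to 17.9 in Rheb1 fl/fl tumours. Anxa2, Anxa4, Anxa6 and Anxa9 had log2 fold changes of -0.30, -0.94, -0.16 and -1.26, with overlapping groups in CPM. The TPM of Anxa6 did not overlap, at 60.3, 6.9e-05 and 0.05 in Cx3cr1-Rheb1 Δ/Δ replicates 26, 36 and 37, against 95.2, 77.6 and 122 in Rheb1 fl/fl replicates 35, 38 and 110, and why its counts and TPM differ was not tested. Anxa8, Anxa10, Anxa11 and Anxa13 were too low for the filter in either experiment. Anxa11 had counts in only 1 Cx3cr1-Rheb1 Δ/Δ TAM-MG library and 1 Rheb1 fl/fl tumour but TPM values above 0 in all 11 libraries, and it overlaps Anxa11os on the opposite strand.

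**Figure D3:**
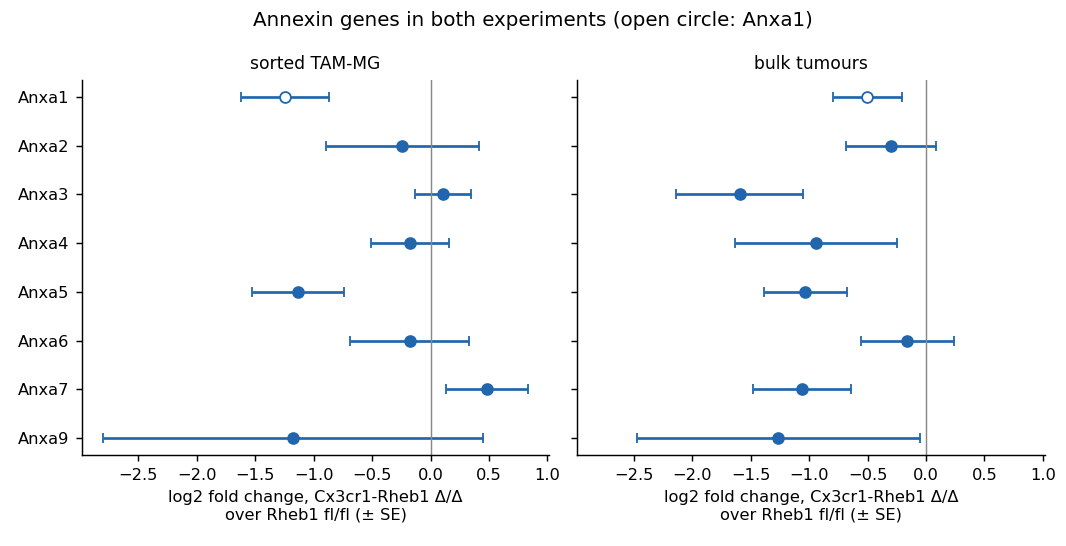
Log2 fold change of Cx3cr1-Rheb1 Δ/Δ over Rheb1 fl/fl (horizontal axis, ± standard error) of the 8 annexin genes tested in both experiments, with TAM-MG on the left and bulk tumours on the right. All 8 points lie below 0 in bulk tumours, at a median of -0.99, while in TAM-MG only Anxa1 (open circle, shown as a description), Anxa5 and the scarce Anxa9 lie below -1.

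Of the other ligands of the receptors, the cathelicidin gene Camp was lower in every Cx3cr1-Rheb1 Δ/Δ TAM-MG library, as were 11.5% of the genes tested. It had 58, 32 and 17 counts in Cx3cr1-Rheb1 Δ/Δ replicates 54, 63 and 65, against 391 and 225 counts in Rheb1 fl/fl replicates 74 and 78. In CPM these were 2.59, 1.23 and 0.69 in Cx3cr1-Rheb1 Δ/Δ, against 12.2 and 11.6 in Rheb1 fl/fl TAM-MG, and the log2 fold change of -2.98 (standard error 1.13) did not pass the quasi-likelihood test (adjusted p = 0.552). Camp is also one of the genes of neutrophil granules. It had no counts in bulk tumours. Saa3, a serum amyloid A made outside the liver, overlapped between the genotypes in TAM-MG, at 7.14 ± 7.88 CPM in Cx3cr1-Rheb1 Δ/Δ (SD, n = 3) and 11.8 ± 5.84 CPM in Rheb1 fl/fl (SD, n = 2). In bulk tumours Saa3 averaged 1.36 ± 1.71 CPM in Cx3cr1-Rheb1 Δ/Δ and 12.5 ± 9.36 CPM in Rheb1 fl/fl (SD, n = 3 each, log2 fold change -3.19, standard error 1.39, adjusted p = 0.527, quasi-likelihood test). Its bulk TPM gave no such difference, at 75.9 to 115 in Cx3cr1-Rheb1 Δ/Δ and 89.4 to 95.0 in Rheb1 fl/fl tumours. Hebp1, whose product is the precursor of a chemotactic peptide for these receptors in humans, ran from 30.02 to 73.9 CPM in Cx3cr1-Rheb1 Δ/Δ, against 34.2 and 75.8 CPM in Rheb1 fl/fl TAM-MG. App, the amyloid precursor protein gene, had log2 fold changes of 0.24 in TAM-MG and 0.12 in bulk tumours.

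The genes of S100 proteins that pair with annexins, S100a11 (the partner of annexin A1), S100a10 (that of annexin A2) and S100a6, were counted in every TAM-MG library. In TPM S100a10 ran from 42.4 to 131 in Cx3cr1-Rheb1 Δ/Δ, against 144 and 75.9 in Rheb1 fl/fl TAM-MG. S100a11 ran from 11.4 to 47.9 TPM in Cx3cr1-Rheb1 Δ/Δ, against 14.3 and 14.3 TPM in Rheb1 fl/fl TAM-MG. S100a6 had 15.7, 5.11 and 8.17 CPM in Cx3cr1-Rheb1 Δ/Δ replicates 54, 63 and 65, against 39.0 and 21.1 CPM in Rheb1 fl/fl replicates 74 and 78, without overlap (log2 fold change -1.63, standard error 0.73, adjusted p = 0.552, quasi-likelihood test). In this direction 11.5% of the genes tested in TAM-MG were without overlap. S100a11 and S100a10 had log2 fold changes of 0.93 and -0.58 in TAM-MG and -0.59 and -0.14 in bulk tumours, with overlapping groups in each. Mtfmt, which formylates the initiator methionine in mitochondria, was lower in CPM in all Cx3cr1-Rheb1 Δ/Δ libraries of both experiments, at 13.6 ± 9.90 CPM in Cx3cr1-Rheb1 Δ/Δ (SD, n = 3) and 42.0 ± 20.8 CPM in Rheb1 fl/fl TAM-MG (SD, n = 2), and at 6.23 ± 5.38 CPM in Cx3cr1-Rheb1 Δ/Δ and 15.1 ± 4.36 CPM in Rheb1 fl/fl tumours (SD, n = 3 each). Its log2 fold changes of -1.63 and -1.28 did not pass the quasi-likelihood test (adjusted p = 0.589 in TAM-MG and 0.779 in bulk tumours). Of all genes tested 11.5% lay so in TAM-MG and 9.23% in bulk tumours without overlap on the lower side, and the share in both was not counted. In TPM Mtfmt overlapped in both experiments, at 2.76 to 15.5 in Cx3cr1-Rheb1 Δ/Δ, against 14.4 and 39.3 in Rheb1 fl/fl TAM-MG, and at 7.24 to 13.3 in Cx3cr1-Rheb1 Δ/Δ and 12.1 to 19.3 in Rheb1 fl/fl tumours. Pdf, the deformylase of mitochondria, was higher in CPM in all Cx3cr1-Rheb1 Δ/Δ TAM-MG libraries, as were 14.6% of the genes tested, at 8.22 ± 2.26 CPM in Cx3cr1-Rheb1 Δ/Δ (SD, n = 3) and 3.27 ± 1.88 CPM in Rheb1 fl/fl (SD, n = 2), with a log2 fold change of 1.33 (standard error 1.08), and had no counts in bulk tumours. Its TPM in TAM-MG overlapped, at 19.8, 3.58 and 12.9 in Cx3cr1-Rheb1 Δ/Δ replicates 54, 63 and 65, against 25.5 and 7.24 in Rheb1 fl/fl replicates 74 and 78. In bulk tumours the TPM of Pdf was 5.40, 0 and 19.2 in Rheb1 fl/fl replicates 35, 38 and 110, and 0 in each Cx3cr1-Rheb1 Δ/Δ tumour. Why its bulk counts and TPM differ was not tested. Metap1d, which then removes the methionine, had log2 fold changes of 0.91 in TAM-MG and 0.57 in bulk tumours, and Mme, a peptidase that degrades formyl peptides, had no counts in TAM-MG and a log2 fold change of -0.23 in bulk tumours.

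The lipid mediator enzymes, which make leukotrienes, prostaglandins and the resolving lipids that act through Fpr2 in humans, were mixed. Of 7 tested in TAM-MG, 5 had a positive log2 fold change (median 0.37), and of 6 tested in bulk tumours 2 had one (median -0.20). Lta4h, which makes leukotriene B4, stood at 92.9 ± 6.73 CPM in Cx3cr1-Rheb1 Δ/Δ (SD, n = 3) and 139 ± 0.09 CPM in Rheb1 fl/fl TAM-MG (SD, n = 2), or -0.58 on the log2 scale (quasi-likelihood test, standard error 0.24, adjusted p = 0.552), and in bulk tumours its log2 fold change was -0.16. Alox5ap and Alox5, which act before it, had log2 fold changes of 0.37 and 0.44 in TAM-MG. The sign of Alox5 rested on replicate 54. Alox5 had 192, 25.1 and 6.01 CPM in Cx3cr1-Rheb1 Δ/Δ replicates 54, 63 and 65, against 52.1 and 57.6 CPM in Rheb1 fl/fl replicates 74 and 78. In bulk tumours Alox5ap and Ltc4s were at -0.54 and 0.92, with overlapping groups.

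Other chemoattractant receptors of phagocytes did not share the Fpr1 pattern in TAM-MG. Of 11 tested there, 8 had a positive log2 fold change, and the median was 0.25 beside 0.08 over all genes. C5ar1, the main receptor of complement C5a, averaged 213 ± 124 CPM in Cx3cr1-Rheb1 Δ/Δ (SD, n = 3) and 198 ± 102 CPM in Rheb1 fl/fl (SD, n = 2), C5ar2 81.3 ± 39.5 CPM in Cx3cr1-Rheb1 Δ/Δ and 59.6 ± 32.3 CPM in Rheb1 fl/fl, and C3ar1, the C3a receptor, 490 ± 181 CPM in Cx3cr1-Rheb1 Δ/Δ and 699 ± 308 CPM in Rheb1 fl/fl, all with overlap. Ltb4r1, the high-affinity leukotriene B4 receptor, was the reverse of Fpr1. It had 189, 83 and 149 counts in Cx3cr1-Rheb1 Δ/Δ replicates 54, 63 and 65, against 0 and 0 counts in Rheb1 fl/fl replicates 74 and 78. This is at least 98.9-fold higher with a floor of 3 counts over both Rheb1 fl/fl libraries. The likelihood ratio test called Ltb4r1 (adjusted p = 0.018), beside 1.18% of all genes on the higher side, and the quasi-likelihood test did not (adjusted p = 0.502). Ltb4r1 was singled out after its values were seen.

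In bulk tumours 7 of 9 tested chemoattractant receptors had a negative log2 fold change, with a median of -3.01, and for 5 of them, C3ar1, Ptafr, Ccr1 and Ccr2 included, the groups did not overlap, beside 9.23% of all genes tested. C3ar1 had 83, 18 and 18 counts in Cx3cr1-Rheb1 Δ/Δ replicates 26, 36 and 37, against 1404, 1208 and 1477 counts in Rheb1 fl/fl replicates 35, 38 and 110 (log2 fold change -4.83, standard error 0.78, adjusted p = 0.103 by the quasi-likelihood test and 2.7e-06 by the likelihood ratio test). C5ar1 averaged 1.14 ± 1.91 CPM in Cx3cr1-Rheb1 Δ/Δ and 5.88 ± 2.82 CPM in Rheb1 fl/fl tumours (SD, n = 3 each). Ltb4r1 overlapped at 2.31 ± 3.51 CPM in Cx3cr1-Rheb1 Δ/Δ and 0.41 ± 0.36 CPM in Rheb1 fl/fl tumours (SD, n = 3 each). Of the 3 receptors that the likelihood ratio test called lower, beside 1.53% of all genes, C3ar1 and Ccr1 are named here. Ccr1, Ptafr and Ccr2 were named after their values were seen. These differences moved with the myeloid markers given above, and the part of the markers in them was not tested.

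**Figure D4:**
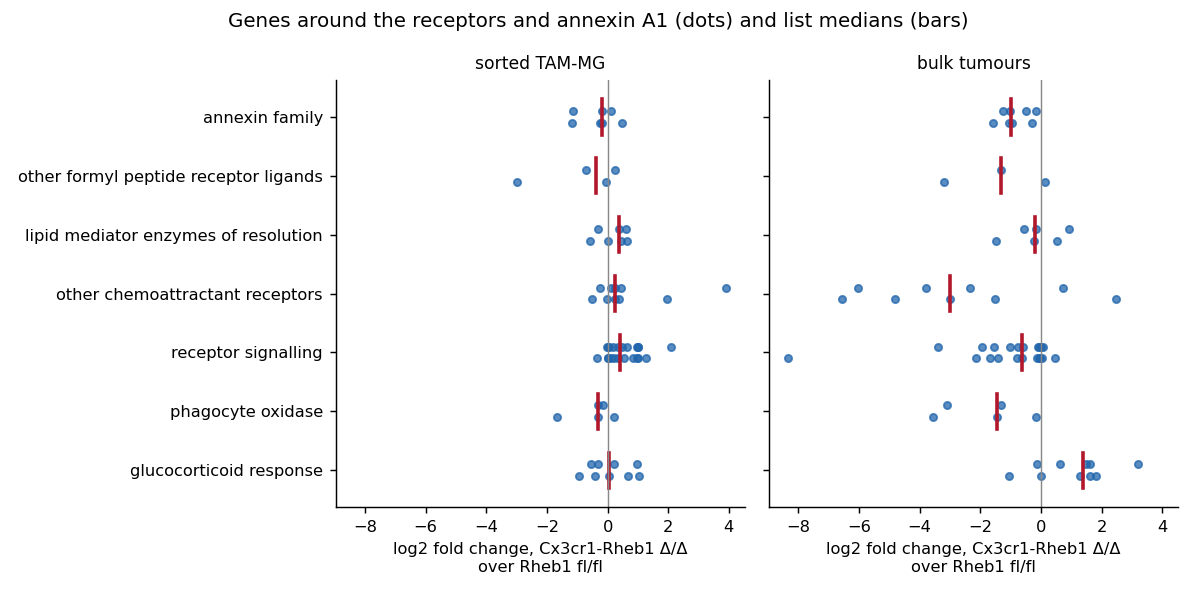
Log2 fold change of Cx3cr1-Rheb1 Δ/Δ over Rheb1 fl/fl (horizontal axis) of each tested gene (dot) in 7 lists around the receptors and annexin A1, with the list median as a red bar, TAM-MG on the left and bulk tumours on the right. The chemoattractant receptors have medians of 0.25 in TAM-MG and -3.01 in bulk tumours; Fpr1, Fpr2 and Anxa1 are left out in TAM-MG, and Ltb4r1, at 0 in Rheb1 fl/fl TAM-MG, has no dot there.

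The signalling genes downstream of the receptors, from the inhibitory G protein and phosphoinositide 3-kinase gamma to arrestins, were measured in full in TAM-MG. Of all 14872 genes tested there, 7958 had a positive log2 fold change, with a median of 0.08. Of the 22 signalling genes 20 had one, with a median of 0.41. At an unadjusted p under 0.05, 3 were higher and none lower, beside 5.47% of all genes on the higher and 2.30% on the lower side, and none was called by either test of edgeR. These 3, named for that after their values were seen, were Gng2, a G protein subunit, Pik3cg, the kinase that G protein subunits activate, and Prex1, an exchange factor of Rac, with log2 fold changes of 0.97, 1.01 and 1.25. The first of the list, Gnai2, the main inhibitory G protein subunit of leukocytes, stood at 206 ± 25.1 CPM in Cx3cr1-Rheb1 Δ/Δ (SD, n = 3) and 140 ± 90.7 CPM in Rheb1 fl/fl TAM-MG (SD, n = 2), and Gnai3 and Gnb1 had log2 fold changes of -0.04 and 0.01. In bulk tumours 18 of 21 were negative, with a median of -0.63 beside 0.00 over all genes. Gnai2, Gnai3 and Gnb1 were at -0.14, -0.06 and 0.08. The part of the myeloid markers in these values was not tested. The likelihood ratio test called 1 of the 21 genes lower there, beside 1.53% of all genes. It was Fgr, a Src family kinase of myeloid cells, with 1, 0 and 0 counts in Cx3cr1-Rheb1 Δ/Δ replicates 26, 36 and 37, against 66, 204 and 249 counts in Rheb1 fl/fl replicates 35, 38 and 110 (adjusted p = 0.0016 by the likelihood ratio test and 0.171 by the quasi-likelihood test). Fgr was named after its values were seen.

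The phagocyte oxidase, which the receptors switch on, was led by Cybb, its membrane-bound catalytic subunit. Cybb had 159, 131 and 116 CPM in Cx3cr1-Rheb1 Δ/Δ replicates 54, 63 and 65, against 368 and 484 CPM in Rheb1 fl/fl replicates 74 and 78. The groups did not overlap, as in this direction for 11.5% of genes tested, and the log2 fold change was -1.65 (standard error 0.27). Cybb passed the likelihood ratio test (adjusted p = 0.0014), which called 0.471% of genes lower, and not the quasi-likelihood test (adjusted p = 0.502). Cyba and Ncf1, its membrane partner and its cytosolic organiser, had log2 fold changes of -0.33 and 0.20 in TAM-MG, with overlap. Of the 5 subunits 4 were negative there, with a median of -0.31, and Cybb was the only one without overlap. In bulk tumours all 5 were negative (median -1.46), at -1.46 for Cybb with overlapping groups, -1.33 for Cyba and -3.09 for Ncf1. The likelihood ratio test called Ncf1 lower (adjusted p = 0.0495), beside 1.53% of all genes, and the quasi-likelihood test did not (adjusted p = 0.274).

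Genes of the glucocorticoid response, to which Anxa1 belongs, went in both directions, and their relation to Anxa1 was not tested. In TAM-MG 5 of 9 tested had a positive and 4 a negative log2 fold change (median 0.06 beside 0.08 over all genes). Nr3c1, the glucocorticoid receptor, was at 157 ± 69.9 CPM in Cx3cr1-Rheb1 Δ/Δ (SD, n = 3) and 76.1 ± 30.4 CPM in Rheb1 fl/fl TAM-MG (SD, n = 2), and its targets Tsc22d3 and Fkbp5 had log2 fold changes of -0.32 and -0.95, all with overlap. In bulk tumours 7 of 10 were positive (median 1.38), and Anxa1 was at -0.50. The groups did not overlap for Fkbp5, as was so in this direction for 7.82% of genes. It had 52.7, 74.1 and 33.2 CPM in Cx3cr1-Rheb1 Δ/Δ replicates 26, 36 and 37, against 19.6, 20.8 and 5.18 CPM in Rheb1 fl/fl replicates 35, 38 and 110 (log2 fold change 1.81, standard error 0.61, adjusted p = 0.366, quasi-likelihood test). Per1, also a clock gene, and Klf9 were named after their values were seen. They were the 2 genes of the list that the likelihood ratio test called higher, beside 0.722% of all genes. Per1 had 311, 380 and 285 CPM in Cx3cr1-Rheb1 Δ/Δ replicates 26, 36 and 37, against 61.5, 22.3 and 23.5 CPM in Rheb1 fl/fl replicates 35, 38 and 110 (adjusted p = 1.2e-07 by the likelihood ratio test and 0.101 by the quasi-likelihood test). The hour at which tissue was taken is not given in the sources used here.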

How the data were processed

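SmartSeq2 and Nextera XT were used for the RNA-seq libraries, which were read in pairs on a HiSeq4000. The authors deposited raw counts per gene from STAR and TPM values from Salmon on Ensembl GRCm38. Tool versions are not given in the sources used here. The deposited bulk TPM cover 12719 genes and the TAM-MG TPM 34839. Over these genes the bulk TPM sum to between 617081 and 642370 per library, against 1000000 in TAM-MG. The deposited TAM-MG tables end with an unnamed total, equal to 100% of the sum of the genes, which was left out, so that the TPM column with its total was recorded as a score. The bulk TPM table holds no total. Of 50686 identifiers, 50376 (99.4%) had a symbol in GENCODE vM21, of GRCm38 too, which gave the coordinates.

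The test of edgeR 4.0.16 (R 4.3.3) was run on the counts of each experiment on its own (3 against 3 tumours, 3 against 2 TAM-MG libraries). Genes were kept by filterByExpr (minimum count 10, total 15), scaled by TMM and compared by the quasi-likelihood test with Benjamini-Hochberg adjustment over all genes, also of the likelihood ratio test where named. A call needed an adjusted p under 0.05 and at least 1.5-fold. Standard errors were derived from the F statistic. With a group at 0 a floor of 3 counts over the group was used. Alternatives were the likelihood ratio test, DESeq2 1.42.0, RLE factors, library size only, no filter or a stricter filter, limma 3.58.1 on log2(TPM + 1) or log2(TPM + 0.1) of genes that reach 1 TPM in 2 or more libraries, and leaving out each library. The labels give separate mice by number only, so that p values measure the spread between these libraries. Each library was checked against the others and none was a copy.

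Genes named are Fpr1, Fpr2 and Anxa1, both families, the first 3 tested genes of each list and any called gene, the 3 genes most like each over bulk tumours, and the 4 nearest to Fpr1 in the TAM-MG pattern. One gene of the lists is not reported here by name or value, but counts in its list's totals. The genes and lists were chosen with earlier results of these data known. The test was also run on simulated counts with known changes.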

Additional observations from a re-analysis of the deposited data

Results flagged for a closer look

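Of 44 genes that the naming rule picked and that were tested in both experiments, 5 (11.4%) had all Cx3cr1-Rheb1 Δ/Δ libraries above all Rheb1 fl/fl libraries in TAM-MG and below them in bulk tumours, as did 1.73% of all 12667 genes tested in both. The log2 fold changes were 0.48 in TAM-MG and -1.06 in bulk tumours for Anxa7, 0.71 and -4.80 for Csf3r, the G-CSF receptor, 0.82 and -1.80 for the microglial gene Tmem119, 1.59 and -2.55 for Sall1, a transcription factor of microglia, and 0.76 and -1.58 for Csf1r, the receptor for CSF-1. In TPM the groups overlapped for Anxa7 in both experiments and for Csf1r in bulk tumours. Of the other genes of the lists P2ry13, Ptgs1, Pik3r5 and Aqp4 showed the pattern in CPM too. The difference between the experiments was not tested.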

How the results depend on the processing

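No gene was called by the quasi-likelihood test in either experiment. In TAM-MG the likelihood ratio test called 175 genes higher and 70 lower, and DESeq2 385 and 88. In bulk tumours these were 123 and 260 by the likelihood ratio test, 140 and 330 by DESeq2, 17 and 85 without a filter on low counts and 52 and 132 with at least 10 counts in every library of a genotype. There, limma on log2(TPM + 1), with or without its filter, and on log2(TPM + 0.1) called 1 gene lower and 0 higher. Leaving out 1 library gave 0 to 1 higher and 0 to 7 lower genes, the highest counts being without Cx3cr1-Rheb1 Δ/Δ replicate 37.

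The log2 fold change of Fpr1 in bulk tumours ran from -7.28 to 2.46 when 1 library was left out and kept its sign in 10 of 11 alternatives (adjusted p 0.480 to 0.970). That of Fpr2 stayed negative in all 15 (-7.76 to -1.02, adjusted p 0.239 to 0.967), as did that of Anxa1 in bulk tumours (-0.74 to -0.33, adjusted p 0.534 to 0.832) and in TAM-MG in all 14 (-1.57 to -1.02). DESeq2 gave no adjusted p for Fpr1 or Fpr2. The Fpr1 bound in TAM-MG ran from 91.4 to 153. Without a Rheb1 fl/fl TAM-MG library, the lone one left is assumed to vary like the others. With TPM, 4 of 20 summed marker ratios moved by more than the spread. No paired analysis was possible because the genotypes share no replicate numbers. In bulk tumours Fpr1 rested on 0 to 150 and Fpr2 on 0 to 348 counts per library, which limits the precision of both. Leaving Csf3r out of the neutrophil list, chosen after seeing the data, put the ratio of Cx3cr1-Rheb1 Δ/Δ over Rheb1 fl/fl sums at 0.74 in TAM-MG, where it was 1.43 with Csf3r, and at 0.50 in bulk tumours, where it was 0.20.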
